A study of Bos taurus with 60 samples.

Results

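Heat-stressed (HT) and cooled (CL) Holstein cows were compared on the third day after dry-off (D3), in the 12 mammary biopsies labelled Day 3 of the 60 in the series. These were 6 HT and 6 CL samples, 1 per cow, chosen by their time label alone. Both groups were multiparous cows in the dry period before their next calving, and milking had stopped 3 d earlier in both. HT cows had shade only, and CL cows had shade, fans and soakers in another pen, so treatment and pen cannot be told apart. Treatments began at dry-off, so at D3 the cows had been treated for 3 d, and the same cows had been sampled at D-3, before treatment. The labels give the breed and no age. Each biopsy was bulk tissue, in which fewer cells of a type and less RNA per cell cannot be told apart.

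In the days after milking stops, the mammary gland enters active involution. Milk accumulates, secretory epithelial cells lose their tight junctions and shut down milk synthesis through loss of prolactin signalling, and STAT3 signalling, lysosomes and cell death remove part of the epithelium while immune cells and matrix enzymes remodel the tissue. Heat exposure of cells is known to activate heat shock factors, which induce chaperones that refold damaged proteins, and prolonged heat also engages the unfolded protein response, antioxidant enzymes and other stress programmes. Active cooling in the dry period is studied because cows that go without it give less milk in the next lactation.

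Library totals at D3 ran from 21409292 to 26044014 counts, with a median of 22449430.5. Values are given as CPM, the count of a locus scaled to library size after edgeR's TMM scaling, and differences as log2 fold change (log2FC) of HT relative to CL ± SE, so that a positive value is higher in HT. Multidimensional scaling (MDS) of the 12 samples placed 45.9% of the variance on dimension 1, where 4 libraries stood apart. They came from HT cows 8541 and 8713 and CL cows 8564 and 8647 and lay at 2.00 to 2.27, while the other 8 lay between -1.56 and -0.33. In these 4 libraries CSN1S1, CSN2 and LALBA, which encode αS1-casein, β-casein and α-lactalbumin, took 3.66% to 7.45% of all counts, against 0.0098% to 1.01% in the other 8. At D-3 the same 4 cows had 40.2% to 49.8% of their counts on these genes, as did CL cow 7965 with 40.9%, which by D3 was at 0.225% and lay with the other 8. Because each treatment held 2 of the 4, the treatments did not separate on dimension 1, where HT averaged 0.028 ± 1.74 (SD, n = 6) and CL -0.028 ± 1.64 (two-sided exact permutation test, p = 0.894). For part of the results below, values without these libraries are also given.

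**Figure D1:**
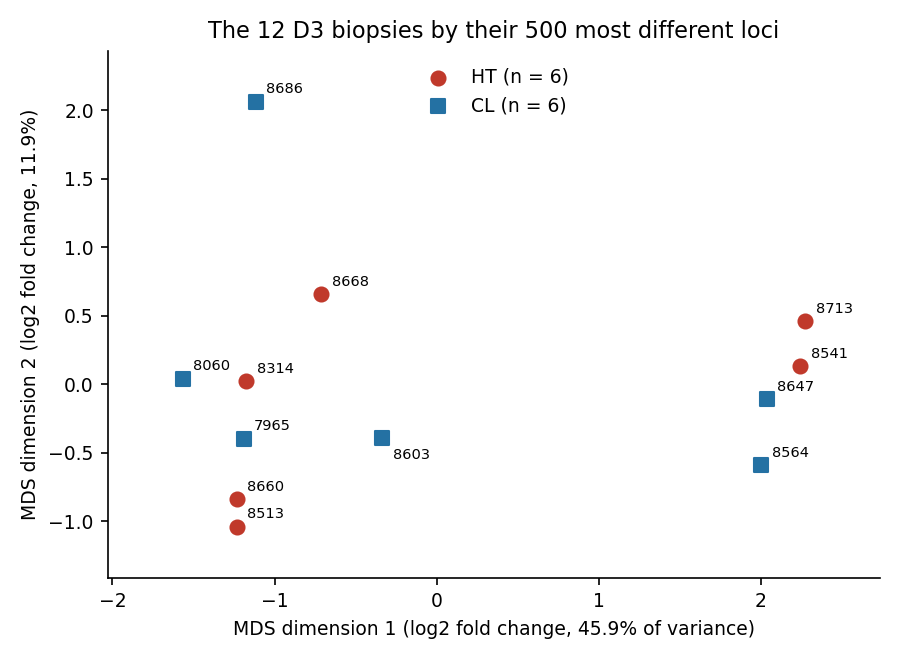
MDS of the 12 D3 biopsies from the 500 loci that differed most between each pair, with dimension 1 on the x axis and dimension 2 on the y axis, both as log2 fold change; each point is 1 cow, labelled by its number, red circles for HT and blue squares for CL. Cows 8541, 8713, 8564 and 8647 lie together on the right with 2 cows of each treatment, and CL cow 8686 lies alone at the top at 2.06 on dimension 2.

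No locus differed between HT and CL at D3 after correction. The quasi-likelihood F-test of edgeR was run at 14714 loci. None (0%) reached an FDR of 0.05 after Benjamini-Hochberg adjustment, while 97 (0.659%) had an unadjusted p under 0.05, 63 (0.428%) of them higher and 34 (0.231%) lower in HT. At the less stringent threshold, p of at most 0.005 with a log2FC of at least 0.5 in size, 3 loci (0.0204%) passed, 2 higher and 1 lower in HT. Over all tested loci the log2FC had a median of -0.0029, and 7240 loci (49.2%) were higher and 7474 (50.8%) lower in HT. The middle 90% of log2FC values lay between -0.35 and 0.41, and the SE of a log2FC had a median of 0.25, so a difference of the size seen at most loci was not detectable with 6 cows per group. By DESeq2 the FDR count was also 0, with 12 loci at the less stringent threshold and 114 at an unadjusted p under 0.05.

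D3 had fewer loci at p under 0.05 than any other day fitted in the same way. The counts were 298 (2.03%) at D-3, 672 (4.57%) at D7, 247 (1.68%) at D14 and 333 (2.26%) at D25, with 0 at an FDR of at most 0.05 at each. At the less stringent threshold there were 8 loci (0.0544%) at D-3, before any treatment, 47 (0.319%) at D7, 8 at D14 and 6 (0.0408%) at D25. The counts were set side by side, and their difference between days was not tested as a count. The biological coefficient of variation between cows was 0.42 at D3, 0.476 at D-3, 0.351 at D7, 0.423 at D14 and 0.331 at D25. Without the 4 libraries that stand apart, the 8 remaining D3 samples gave 0 loci at an FDR of at most 0.05, 26 at the less stringent threshold and 316 at p under 0.05.

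**Figure D2:**
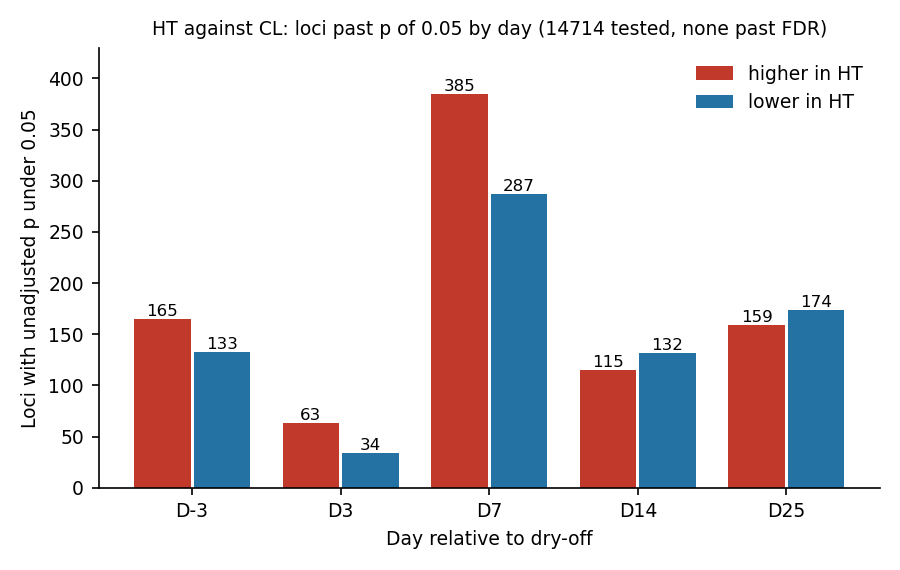
Number of loci (y axis, from 0) with an unadjusted p under 0.05 for HT against CL in edgeR's quasi-likelihood F-test at each day (x axis), with red bars for loci higher in HT and blue bars for loci lower in HT, from 6 cows per treatment at each day. D3 has the shortest bars, with 63 and 34 loci, and D7 the tallest, with 385 and 287.

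The 3 loci past the less stringent threshold carried no gene symbol in the tables used, and all were at low counts. XLOC_017640, which has no ENSEMBL gene, ran from 0.0511 to 2.62 CPM in HT (median 0.676) and from 0.0486 to 0.411 CPM in CL (median 0.131). It was near 0 in most CL cows, 5 of 6 HT cows lay above the CL median, and HT cow 8713 was among the lowest. Its log2FC was 2.57 ± 0.74 (edgeR, p = 0.00395; two-sided exact permutation test, p = 0.0281). XLOC_008055 (ENSBTAG00000008182) ran from 1.55 to 3.36 CPM in HT (median 2.27) and from 1.75 to 12.9 CPM in CL (median 5.88). All 6 HT cows lay below the CL median, and the groups overlapped through CL cows 8647 and 8686. Its log2FC was -1.49 ± 0.43 (edgeR, p = 0.00412; exact permutation, p = 0.0368). XLOC_005519 (ENSBTAG00000001154) ran from 0.817 to 4.64 CPM in HT (median 2.14) and from 0.789 to 1.30 CPM in CL (median 0.971), with 5 HT cows above every CL cow and cow 8713 within the CL range. Its log2FC was 1.21 ± 0.36 (edgeR, p = 0.00482; exact permutation, p = 0.0130). With each cow left out in turn these log2FC values stayed between 2.11 and 3.00, -1.68 and -1.22, and 0.88 and 1.38 respectively, and without the 4 libraries that stand apart they were 2.72, -1.46 and 1.60. The largest edgeR p with 1 cow left out was 0.0128, 0.0125 and 0.0143. The 3 loci were chosen by their values in these 12 samples, so the permutation p and leave-out values are not independent support. Before treatment, at D-3, the same 3 loci had log2FC values of -0.31, 0.74 and 0.20, each with p above 0.05 (edgeR smallest p = 0.213, exact permutation p = 0.498). Because the loci were chosen for large values at D3, smaller values at another day follow in part from that choice.

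The 2 treatments did not overlap at 2 of the 14714 loci (0.0136%), 1 in each direction (0.0068% each), which were named after their values were seen. XLOC_007885 (ENSBTAG00000013175) ran from 81.6 to 94.6 CPM in HT (median 83.8) and from 75.8 to 81.5 CPM in CL (median 79.3), a log2FC of 0.12 ± 0.10. Every HT cow was above every CL cow, by a narrow margin. XLOC_021801 (ENSBTAG00000036242) ran from 0.651 to 1.29 CPM in HT (median 0.841) and from 1.31 to 1.75 CPM in CL (median 1.36), a log2FC of -0.69 ± 0.26. Neither had an FDR of at most 0.05 in edgeR. Because both were chosen for groups that do not overlap, no permutation p is given for them.

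Of the 97 loci at p under 0.05, 12 had a symbol, and these were named after their values were seen. Of these, 9 were higher and 3 lower in HT. MFAP5, a protein of elastic microfibrils, ran from 70.1 to 218 CPM in HT (median 119.9) and from 47.7 to 109.7 CPM in CL (median 76.6), with a log2FC of 0.75 ± 0.32 (edgeR p = 0.0368, exact permutation p = 0.0996). Its 3 highest libraries were HT cows 8314, 8513 and 8660, and the other 3 HT cows lay within the CL range. SVEP1, a cell adhesion protein of the matrix, ran from 30.7 to 58.5 CPM in HT (median 37.2) and from 22.7 to 44.2 CPM in CL (median 24.1) (log2FC 0.50 ± 0.21, edgeR p = 0.0357, exact permutation p = 0.0281), and 6 of 6 HT cows were above the CL median. ANGPT2, a ligand of the endothelial TIE2 receptor that loosens vessels, ran from 14.3 to 29.7 CPM in HT (median 18.6) and from 11.5 to 17.3 CPM in CL (median 15.1) (log2FC 0.46 ± 0.19, edgeR p = 0.0261, exact permutation p = 0.0238). At D7, in a separate fit, ANGPT2 had a log2FC of 1.10 (edgeR p = 0.000335, exact permutation p = 0.00433). Its difference between D7 and D3 did not reach an FDR of 0.05. SEMA3B, a secreted guidance protein, had 0.73 ± 0.33 (edgeR p = 0.0420, exact permutation p = 0.104), and MYOC, a secreted glycoprotein, 0.55 ± 0.25 (edgeR p = 0.0436, exact permutation p = 0.0714). Without the 4 libraries that stand apart the log2FC was 1.15 for MFAP5 (edgeR p = 0.00571, exact permutation p = 0.0857), 0.86 for SEMA3B (edgeR p = 0.00421, exact permutation p = 0.0286) and 0.74 for MYOC (edgeR p = 0.00607, exact permutation p = 0.0286). On the same 8 cows SVEP1 was at 0.46, ANGPT2 at 0.42, TMEM249 at 0.63, TBC1D9 at -0.31 and STK17A at -0.33, none of them with an unadjusted edgeR p under 0.05. The genes were chosen by their p in all 12 D3 samples, and the 8 are part of these. The permutation p and the values on 8 cows are therefore not independent support.

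The other symbol-bearing loci of that set differed in who carried the difference. KL, which encodes the FGF23 co-receptor klotho, ran from 0.155 to 0.529 CPM in HT (median 0.337) and from 0.0747 to 12.99 CPM in CL (median 0.413). A single CL cow, 8686, had 12.99 CPM, and every other cow of either treatment was under 1 CPM, so that the log2FC of -2.81 ± 1.07 became -0.0035 without that cow. SLC28A1, a nucleoside transporter, ran from 1.33 to 22.4 CPM in HT (median 2.30) and from 0.583 to 2.96 CPM in CL (median 1.21) with a log2FC of 1.79 ± 0.70, and HT cow 8541 was the highest library; without it the log2FC was 0.65, and without the 4 libraries that stand apart 0.52 (edgeR p = 0.318, exact permutation p = 0.457). TMEM249 ran from 0.766 to 1.18 CPM in HT (median 1.01) and from 0.486 to 0.818 CPM in CL (median 0.629), a log2FC of 0.60 ± 0.27 with 6 of 6 HT cows above the CL median. CRYBB1, a lens crystallin gene, had 1.01 ± 0.42 at D3 and already 1.14 at D-3, before treatment (edgeR p = 0.0178, exact permutation p = 0.0909). Lower in HT were TBC1D9 with -0.31 ± 0.14 and STK17A, a kinase that promotes apoptosis, with -0.36 ± 0.16. RSAD2 is given with the interferon genes. All 12 had an FDR near 1.

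The gene lists held 551 entries, of which 183 could be paired with a tested locus through the incomplete table of symbols, so each list is seen in part. The symbols came from tables that rank genes by their change between days, so paired members were not a random sample of their list. No list member had an FDR of at most 0.05 or passed the less stringent threshold, and 1 of their 181 distinct loci (0.552%) had a p under 0.05, the interferon gene RSAD2, beside 0.659% of all loci. In the 8 libraries left without the 4 that stand apart, 5 members (2.76%) had a p under 0.05, beside 2.15% of all loci, namely HMOX1, TIMP1, ISG15, DCN and GP2, all higher in HT.

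Heat shock proteins and chaperones lay on both sides of 0 at D3. Of 13 tested members 5 were higher and 8 lower in HT, none at p under 0.05, with a median log2FC of -0.051 and a range of -0.22 to 0.30, against a median of -0.0029 over all loci. HSPB1, a small heat shock protein and the member with the most reads, ran from 187 to 496 CPM in HT (median 414) and from 167 to 773 CPM in CL (median 267). The ranges overlapped almost wholly, the 4 libraries that stand apart were its highest, and the log2FC was -0.065 ± 0.37 (edgeR p = 0.864, exact permutation p = 0.920). HSPD1, the mitochondrial chaperonin, ran from 93.9 to 201 CPM in HT (median 183) and from 127 to 276 CPM in CL (median 180.3) (log2FC -0.14 ± 0.23). DNAJA1, a co-chaperone of HSP70, ran from 131 to 235 CPM in HT (median 168) and from 149 to 225 CPM in CL (median 185) (log2FC -0.051 ± 0.18). TRAP1, an HSP90 of mitochondria, was at -0.048 ± 0.16, CRYAB, a small heat shock protein, at -0.13 ± 0.40, and FKBP4, an HSP90 partner, at -0.17 ± 0.22. The transcription factor HSF2 ran from 11.8 to 27.2 CPM in HT (median 19.5) and from 13.5 to 23.1 CPM in CL (median 19.1) (log2FC 0.024 ± 0.22). The smallest p of the list was that of DNAJB5, a co-chaperone, with 0.27 ± 0.31 (edgeR p = 0.388, exact permutation p = 0.656). HSPA9 shares its locus with ETF1 and HSPB2 was at -0.22 ± 0.30. Without the 4 libraries that stand apart 7 of 13 members were higher in HT and the median was 0.032. The genes of the inducible cytosolic HSP70 and HSP90, HSPA1A and HSP90AA1, could not be paired and are not analysed here.

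**Figure D3:**
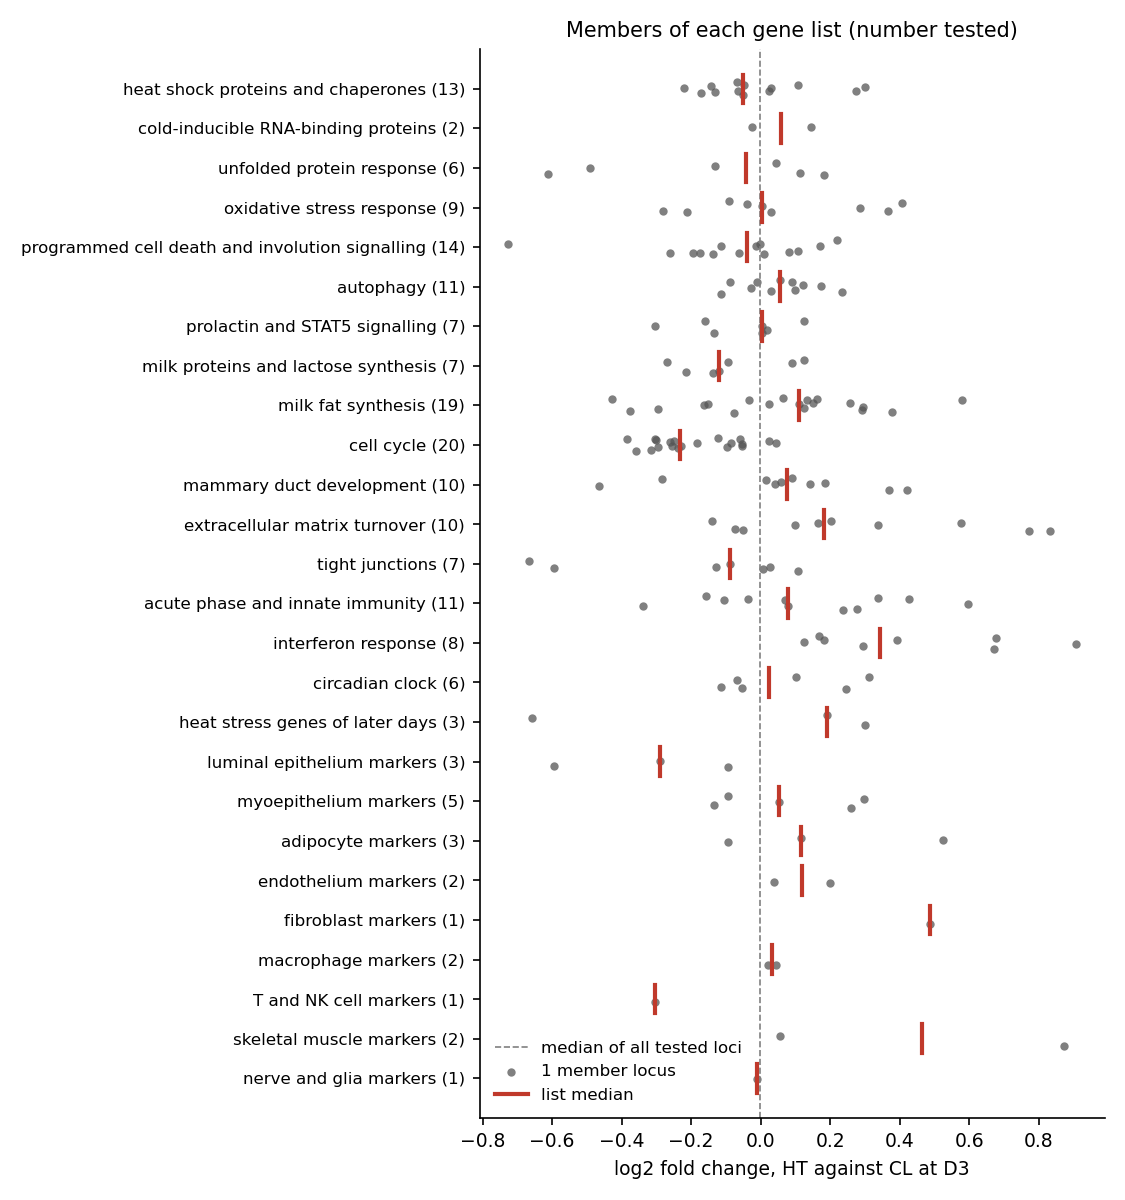
log2FC of HT relative to CL at D3 (x axis) for every tested member of 26 gene lists (y axis, number tested in parentheses); grey points are single loci, red bars are list medians and the dashed line is the median of all tested loci. Most medians lie close to the dashed line, the cell cycle list lies left of it with a median of -0.23, and the interferon list lies wholly right of it.

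Genes of other stress programmes were spread on both sides of 0. The unfolded protein response list had 3 members higher and 3 lower in HT of 6 (median -0.042). ATF4, its central transcription factor, ran from 202 to 278 CPM in HT (median 238) and from 197 to 381 CPM in CL (median 245) (log2FC -0.13 ± 0.16). DDIT3, the factor CHOP that promotes cell death under endoplasmic reticulum stress, ran from 9.06 to 17.0 CPM in HT (median 12.8) and from 9.05 to 16.4 CPM in CL (median 12.4) (log2FC 0.045 ± 0.20). PPP1R15A, which restores translation, was at -0.49 ± 0.46, where the 4 libraries that stand apart spanned 34.4 to 88.9 CPM and the other 8 12.0 to 22.3, and it was -0.30 without the 4. Of 9 oxidative stress genes 5 were higher and 4 lower (median 0.0042). HMOX1, which degrades heme, ran from 37.0 to 60.8 CPM in HT (median 44.0) and from 22.1 to 44.4 CPM in CL (median 39.7) with a log2FC of 0.37 ± 0.19 (edgeR, p = 0.0766; exact permutation, p = 0.104), and at D-3 it was at 0.74. It was, without the 4 libraries that stand apart, 0.58 (edgeR p = 0.0312, exact permutation p = 0.0857). Its transcriptional activator NFE2L2 was at -0.21 ± 0.26, and the superoxide dismutases SOD1 and SOD2 at -0.039 ± 0.15 and 0.031 ± 0.54. SOD2 differed between libraries more than between treatments, from 274 to 378 CPM in the 4 libraries that stand apart and from 39.6 to 191 in the other 8, where its log2FC was -0.022. The cold-inducible CIRBP, whose locus also holds C7H19orf24, ran from 247 to 449 CPM in HT (median 319) and from 193 to 389 CPM in CL (median 319) (log2FC 0.14 ± 0.21). SRSF5, a splicing factor that stood on the same list of 2, was at -0.024 ± 0.25 (list median 0.060).

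Involution signals were measured in both treatments, with overlapping levels at each gene named. In the list of programmed cell death and involution signalling, 5 members were higher and 9 lower in HT of 14, with a median of -0.039. STAT3, which drives involution, ran from 226 to 495 CPM in HT (median 337) and from 236 to 372 CPM in CL (median 329) (log2FC 0.083 ± 0.19). LIF, the cytokine that activates it, ran from 1.20 to 19.1 CPM in HT (median 4.65) and from 2.01 to 35.3 CPM in CL (median 4.71) (log2FC -0.73 ± 0.81, edgeR p = 0.385, exact permutation p = 0.613), and OSMR, the oncostatin M receptor, was at 0.17 ± 0.39. For all 3 the 4 libraries that stand apart were higher than the other 8, at 13.7 to 35.3 against 1.20 to 6.39 CPM for LIF, 604 to 822 against 148 to 450.5 for OSMR and 369.8 to 495 against 226 to 354 for STAT3. In the other 8 libraries the log2FC was -0.22 for LIF, 0.14 for OSMR and -0.021 for STAT3. IGFBP5, which withholds IGF1 from epithelium, was at -0.19 ± 0.45, the initiator caspase CASP9 at 0.010 ± 0.12, and the anti-apoptotic BCL2L1 and MCL1 at -0.26 ± 0.25 and -0.0022 ± 0.29. Autophagy genes were higher in HT for 7 of 11 members (median 0.057), with 2 higher without HT cow 8713 and 10 without CL cow 8647. SQSTM1, the cargo receptor p62, ran from 181 to 957 CPM in HT (median 354) and from 197 to 1061 CPM in CL (median 338) (log2FC -0.11 ± 0.49), and in the 4 libraries that stand apart it was at 772 to 1061 CPM against 181 to 429 in the rest, where the log2FC was -0.094.

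Prolactin and STAT5 signalling had 4 members higher and 3 lower of 7 (median 0.0029), none at p under 0.05. Under other scalings or with libraries left out the median was negative in 15 of 15 fits, from -0.15 to -0.0010. With each cow left out 1 to 3 members were higher. STAT5B, which carries the prolactin signal, ran from 98.1 to 138 CPM in HT (median 117) and from 92.2 to 179 CPM in CL (median 106) (log2FC 0.0029 ± 0.16). Its feedback inhibitor CISH was at 0.017 ± 0.32, and IGF1R, the receptor of IGF1, at 0.0041 ± 0.18. Of 7 genes of milk protein and lactose synthesis, 2 were higher and 5 lower in HT (median -0.12), and the SE of a log2FC was 1.45 for CSN1S1, 1.41 for CSN2 and 1.22 for LALBA, against a median of 0.25 over all loci. CSN1S1 ran from 147 to 54047 CPM in HT (median 2575) and from 47.2 to 46576 CPM in CL (median 4203), a log2FC of -0.22 ± 1.45 (edgeR p = 0.885, exact permutation p = 0.790). The 4 highest libraries were the 4 that stand apart, 2 in each treatment, and the lowest was CL cow 8060. LALBA, a subunit of lactose synthase, was at -0.27 ± 1.22, and B4GALT1, its catalytic partner, ran from 682 to 2448 CPM in HT (median 1025) and from 739 to 1918 CPM in CL (median 1091) (log2FC 0.13 ± 0.33). Without the 4 libraries the list median was -0.78, and with each cow left out it ranged from -0.87 to 0.38.

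Milk fat synthesis genes had 12 members higher and 7 lower in HT of 19, with a median of 0.11, none at p under 0.05. Without the 4 libraries that stand apart the count turned to 7 higher and 12 lower, and the median to -0.15. It was -0.19 without HT cow 8541 and 0.27 without CL cow 8647. FASN, the fatty acid synthase, ran from 349 to 1255 CPM in HT (median 851) and from 467 to 3029 CPM in CL (median 778) (log2FC -0.30 ± 0.44), and ACACA, which makes its malonyl-CoA, was at 0.13 ± 0.36. SREBF1, the transcription factor that drives both, was at 0.16 ± 0.29. CD36 and LPL, which take up fatty acids from blood, were at -0.16 ± 0.64 and 0.13 ± 0.30, and GPAM, the first enzyme of triglyceride assembly, at 0.29 ± 0.40. XDH, needed for fat globule secretion, ran from 709.9 to 3482 CPM in HT (median 889.7) and from 648 to 1860.4 CPM in CL (median 1141) (log2FC 0.26 ± 0.42). At D7 SREBF1 had a log2FC of 0.76 (edgeR p = 0.00708, exact permutation p = 0.0238), FABP3, a fatty acid carrier, 2.53 (edgeR p = 0.00802, exact permutation p = 0.0649) and SCD, a desaturase, 1.84 (edgeR p = 0.0196, exact permutation p = 0.193), where D3 had 0.16, 0.58 and -0.076. These values came from separate fits of the days, and the other members are not given at D7. No locus reached an FDR of 0.05 for the difference between D7 and D3.

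Proliferation genes were lower in HT in most members, each within the spread of cows. Of 20 tested cell cycle genes 18 were lower and 2 higher in HT, with a median of -0.23, but none had a p under 0.05. Over all tested loci 50.8% were lower in HT. The summed CPM of the 20 genes had a median of 300 in HT and 299 in CL, and the highest library was CL cow 8686 at 562. MKI67, the proliferation antigen, ran from 28.1 to 61.1 CPM in HT (median 44.3) and from 25.9 to 89.5 CPM in CL (median 46.8) (log2FC -0.32 ± 0.31, p = 0.329; exact permutation, p = 0.554). KIF11, a motor of the mitotic spindle, ran from 6.19 to 16.2 CPM in HT (median 11.1) and from 6.55 to 23.8 CPM in CL (median 15.6), with 1 of 6 HT cows above the CL median (log2FC -0.39 ± 0.34, edgeR p = 0.276, exact permutation p = 0.355). TOP2A, which untangles chromosomes, was at -0.30 ± 0.36 and CENPF, a kinetochore protein, at -0.36 ± 0.41, while CDK1, the mitotic kinase, was at 0.043 ± 0.23. The members were measured in the same 12 biopsies and are not independent of each other. Without the 4 libraries that stand apart 13 were lower and 7 higher and the median was -0.055, and with each cow left out it ranged from -0.34 to -0.017, with 7 members higher without CL cow 8686, 6 without HT cow 8713 and 5 without HT cow 8541. At D-3 before treatment MKI67 was at 0.76, and at D7 at -0.39.

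In the mammary duct list 8 of 10 members were higher in HT (median 0.075), 4 of 10 without the 4 libraries that stand apart, and 5 of 10 without CL cow 8686. GATA3, which maintains luminal cells, was at 0.042 ± 0.18, the growth factor receptors EGFR, ERBB2 and ERBB3 at 0.059 ± 0.26, 0.14 ± 0.23 and 0.091 ± 0.31. SPRY4, an inhibitor of growth factor signalling, had the smallest p of the list and ran from 4.49 to 15.4 CPM in HT (median 9.68) and from 10.2 to 20.5 CPM in CL (median 11.1), with a log2FC of -0.47 ± 0.30 (edgeR p = 0.142, exact permutation p = 0.149). Matrix turnover genes were higher in HT for 7 of 10 members (median 0.18), without the 4 libraries for 9 of 10 (median 0.61), and without CL cow 8686 for 6 of 10 (median 0.031). FN1, fibronectin, ran from 599.7 to 2919.8 CPM in HT (median 1319) and from 435 to 2622 CPM in CL (median 1059) (log2FC 0.20 ± 0.46), and the metalloproteinase inhibitor TIMP1 ran from 25.8 to 157 CPM in HT (median 45.8) and from 19.8 to 102 CPM in CL (median 44.4) (log2FC 0.58 ± 0.48). TIMP1 was at 0.20 without HT cow 8513 and, without the 4 libraries, at 1.35 (edgeR p = 0.0254, exact permutation p = 0.200). MXRA5, a matrix remodelling protein, was at 0.34 ± 0.63. Tight junction genes had 3 members higher and 4 lower of 7 (median -0.089), and without the 4 libraries 6 higher and 1 lower (median 0.066). CLDN3, a claudin of milk-secreting epithelium, ran from 73.2 to 236 CPM in HT (median 157) and from 85.1 to 700.4 CPM in CL (median 122), and its log2FC of -0.67 ± 0.51 became -0.0025 without CL cow 8564, its highest library, and 0.16 without the 4 libraries. The scaffold TJP1 was at 0.026 ± 0.13 and occludin, OCLN, at 0.0081 ± 0.17.

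In the interferon response list every tested member was higher in HT, 8 of 8 with a median of 0.34, where 49.2% of all loci were higher. RSAD2, the antiviral enzyme viperin, ran from 13.2 to 89.9 CPM in HT (median 31.3) and from 14.8 to 30.5 CPM in CL (median 20.9). HT cows 8314, 8541 and 8668 lay above all CL cows, and HT cow 8513 was the lowest library. The log2FC was 0.91 ± 0.41 (edgeR, p = 0.0426; exact permutation, p = 0.177), and it was between 0.46, without HT cow 8668, and 1.09 with each cow left out. DHX58, a sensor of viral RNA, ran from 22.8 to 49.6 CPM in HT (median 34.6) and from 22.5 to 33.3 CPM in CL (median 25.1), with 5 HT cows above the CL median (log2FC 0.39 ± 0.18, p = 0.0509; exact permutation, p = 0.0649). MX1, an antiviral GTPase, ran from 21.3 to 150.4 CPM in HT (median 51.7) and from 17.7 to 76.8 CPM in CL (median 42.0) (log2FC 0.67 ± 0.47, edgeR p = 0.180, exact permutation p = 0.325). The highest MX1 value came from cow 8668, as for RSAD2, and without it the log2FC was 0.22. ISG15, a ubiquitin-like protein, ran from 3.88 to 27.7 CPM in HT (median 9.42) and from 3.56 to 17.8 CPM in CL (median 6.15) (log2FC 0.68 ± 0.49, edgeR p = 0.189, exact permutation p = 0.281). For ISG15 it was 0.22 without the same cow and, without the 4 libraries that stand apart, 1.33 (edgeR p = 0.0184, exact permutation p = 0.114).

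The remaining interferon members were closer to 0. STAT2, which carries the signal of type I interferons, was at 0.18 ± 0.15, and HERC6, a ligase for ISG15, at 0.29 ± 0.50. The signal factors IRF9 and IRF7 share their loci with RNF31 and CDHR5 and were at 0.13 ± 0.15 and 0.17 ± 0.21. The median of the list stayed between 0.22 to 0.46 with each cow left out, with 8 of 8 higher each time, and it was 0.40 without the 4 libraries that stand apart, with library-size scaling also 8 of 8. At D-3, before treatment, the same loci were at 0.044 for RSAD2, 0.30 for DHX58, 0.44 for MX1 and 0.70 for ISG15, and at D7 at -0.52, -0.19, -0.57 and -1.05. These genes respond to the same cytokines and cannot be counted as independent. The list was 1 of 30, and no test of the list was made.

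Acute phase and innate immunity genes were split, with 7 higher and 4 lower of 11 (median 0.079). C3, the central complement component, ran from 911 to 19299 CPM in HT (median 1923) and from 526 to 16048 CPM in CL (median 1796) (log2FC 0.24 ± 0.94). The 4 libraries that stand apart spanned 10286 to 19299 CPM and the other 8 526 to 2155, where the log2FC was 0.25. LBP, which binds lipopolysaccharide, ran from 117 to 1297 CPM in HT (median 187) and from 113 to 624 CPM in CL (median 243) (log2FC 0.43 ± 0.62), and at D-3, before treatment, it was at 2.01 (edgeR p = 0.00635, exact permutation p = 0.0390). The chemokine CXCL12 had the smallest p of the list and ran from 175 to 456 CPM in HT (median 331) and from 207 to 309 CPM in CL (median 256) (log2FC 0.28 ± 0.22, edgeR p = 0.230, exact permutation p = 0.305). Clock genes were split evenly, 3 of 6 higher (median 0.024), with PER1, a repressor of the clock, at 0.31 ± 0.22 and CLOCK itself at -0.068 ± 0.20.

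**Figure D4:**
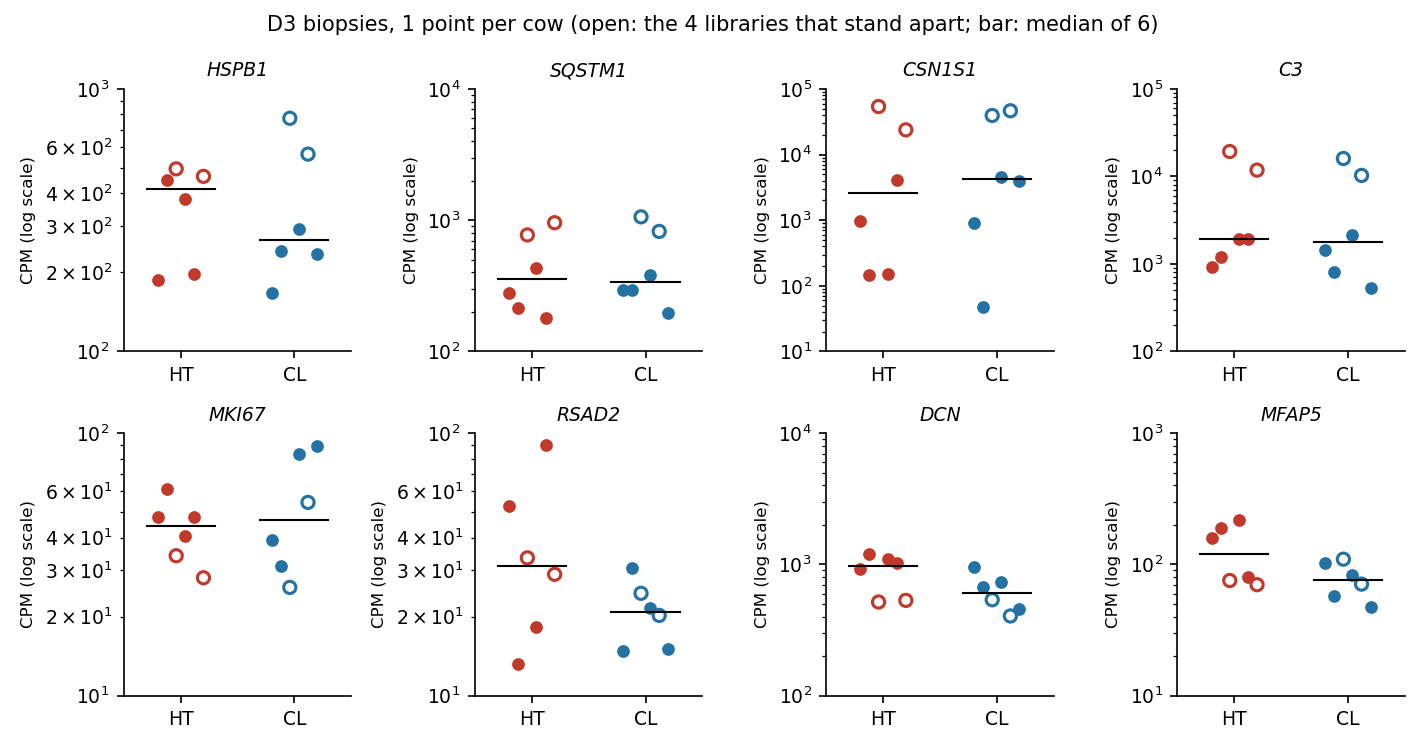
CPM on a log scale (y axis) in the 6 HT and 6 CL biopsies of D3 for 8 genes; each point is 1 cow, open symbols are the 4 libraries that stand apart and black bars are medians. HSPB1, SQSTM1, CSN1S1 and C3 separate open from filled symbols and not HT from CL, MKI67 overlaps throughout, RSAD2 has its 3 highest values in HT, and DCN and MFAP5 have higher medians in HT.

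The labelled tissue was checked by its epithelial markers, which were present in all 12 samples, and no cell type marker differed between treatments at p under 0.05 over all 12. The luminal keratin KRT19 ran from 458 to 2112 CPM in HT (median 1138) and from 517 to 3229 CPM in CL (median 766) (log2FC -0.094 ± 0.47), and all 3 tested luminal markers were lower in HT (median -0.29), but without the 4 libraries that stand apart 3 of 3 were higher (median 0.21). Of the 5 myoepithelial markers 3 were higher in HT (median 0.052), and 5 of 5 without the 4 libraries (median 0.46), with ACTA2, smooth muscle actin, at 0.26 ± 0.38. DCN, decorin, was the 1 fibroblast marker paired and ran from 517 to 1206 CPM in HT (median 979.6) and from 405 to 954 CPM in CL (median 603). Its 4 highest HT cows were above 5 of the 6 CL cows, and its log2FC was 0.49 ± 0.29 (edgeR, p = 0.112; exact permutation, p = 0.130) and, without the 4 libraries that stand apart, 0.58 (edgeR p = 0.0349, exact permutation p = 0.0571). With each cow left out in turn the log2FC of DCN ranged from 0.38 to 0.66, with an unadjusted edgeR p from 0.0377 to 0.228. It was 0.66 without CL cow 7965 and 0.61 without HT cow 8541, each with an unadjusted edgeR p under 0.05. DCN was higher in HT beside the matrix genes above, and the part of fibroblast content in their values was not tested. The summed CPM of 3 adipocyte markers ran from 45.6 to 202 in HT and 17.6 to 212 in CL (median log2FC 0.11), with ADIPOQ, the defining adipokine, at 4.01 to 18.8 and 3.02 to 15.9 CPM. The 2 endothelial markers KDR and EMCN were at 0.20 ± 0.25 and 0.038 ± 0.23, the macrophage markers MSR1 and AIF1 at 0.044 ± 0.23 and 0.022 ± 0.24, and ZAP70, of T and NK cells, at -0.30 ± 0.27. Skeletal muscle markers were near 0 CPM or low, with MYH7 at no more than 1.01 CPM in any sample and MYH2 at no more than 16.7, and the nerve and glia marker NGFR was at -0.0094 ± 0.60. No member of the neutrophil, B and plasma cell, mast cell or erythrocyte lists could be paired, so these cells are not analysed here.

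Since the cows were sampled before treatment, the change from D-3 to D3 was compared between treatments with the cow as a block. At D-3 the casein and α-lactalbumin genes named above took 40.2% to 49.8% of counts in some cows. These were CL cows 7965, 8564 and 8647 and HT cows 8541 and 8713. Every other cow lay between 0.190% (CL cow 8060) and 8.03% (HT cow 8668). More CL than HT cows thus began at the high level, and the part of this imbalance in the change was not tested. For the difference in change 0 loci reached an FDR of 0.05, 3 (0.0204%) passed the less stringent threshold and 212 (1.44%) had a p under 0.05, 98 (0.666%) with a more positive change in HT and 114 (0.775%) with a more negative one (edgeR). The 3 loci, named after their values were seen, were XLOC_005043, XLOC_017426 (ENSBTAG00000011534) and KERA, which encodes the matrix proteoglycan keratocan. For KERA the log2FC of HT relative to CL was -1.41 at D-3 and -0.29 at D3, a difference in change of 1.10 ± 0.30 (edgeR p = 0.00266, exact permutation p = 0.00649). XLOC_005043 went from 1.28 to -0.47 (-1.81 ± 0.45) and XLOC_017426 from 0.64 to -1.04 (-1.66 ± 0.49). None of these 3 had a p under 0.05 between treatments at D3 itself. The count at p under 0.05 was 567 without CL cow 7965 and 343 without HT cow 8713. Without CL cows 8564 and 8647, which also began at the high level, it was 176 and 148. Without the block 102 loci had a p under 0.05 and 1 passed the less stringent threshold.

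The difference between treatments at D7 was compared with that at D3 in the same way. For the difference between the days 0 loci had an FDR of at most 0.05, 2 (0.0136%) passed the less stringent threshold and 112 (0.761%) had a p under 0.05, 74 (0.503%) with a more positive log2FC at D7 and 38 (0.258%) with a more negative one (edgeR). PRG4, lubricin, went from 0.79 at D3 to -1.34 at D7, a difference of -1.50 ± 0.40 (edgeR p = 0.00208, exact permutation p = 0.00433). The D3 value of PRG4 rested on HT cow 8513, at 67.3 CPM where the next HT cow had 18.997, and it was 0.047 without that cow and 1.74 without the 4 libraries that stand apart. NES, the intermediate filament nestin, went from 0.27 to 0.74 (0.52 ± 0.15, edgeR p = 0.00481, exact permutation p = 0.00433). Both were named after their values were seen. Leaving out HT cow 8541 raised the count at p under 0.05 to 429, HT cow 8660 gave 176, HT cow 8713 171 and CL cow 8647 62, and without the block it was 58.

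Among the genes that the study named for heat stress at later days, 3 could be paired, and the study had chosen them on samples of these cows. FCAMR, an Fc receptor for IgA and IgM, ran from 1.05 to 21.3 CPM in HT (median 6.39) and from 2.05 to 33.1 CPM in CL (median 9.88) at D3, with 1 HT cow above the CL median (log2FC -0.66 ± 0.69, edgeR p = 0.356, exact permutation p = 0.584). At D7 its log2FC was 2.86 (edgeR p = 0.00856, exact permutation p = 0.0606), and the difference between days was 3.05 ± 1.30 (edgeR p = 0.0346, exact permutation p = 0.0758). GP2, a glycoprotein that binds bacteria, ran from 9.45 to 189.8 CPM in HT (median 35.5) and from 1.90 to 158 CPM in CL (median 11.6) at D3. The 4 libraries that stand apart were its highest, the log2FC was 0.19 ± 0.98, without those libraries it was 1.61 (edgeR p = 0.0182, exact permutation p = 0.0857), and at D7 it was 2.10 (edgeR p = 0.0186, exact permutation p = 0.242). DNAJC12, a co-chaperone of the HSP70 system, ran from 4.64 to 129 CPM in HT (median 23.9) and from 9.18 to 93.7 CPM in CL (median 16.3) at D3 (log2FC 0.30 ± 0.81) and was at 1.85 at D7 (edgeR p = 0.0123, exact permutation p = 0.0303). For GP2 and DNAJC12 the difference between the days was 0.11 ± 1.71 (edgeR p = 0.948, exact permutation p = 0.952) and 1.82 ± 1.02 (edgeR p = 0.0954, exact permutation p = 0.147), with no FDR of at most 0.05. The blocked estimate weighs the change within each cow and need not equal the gap between the separate fits, as at GP2.

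**Figure D5:**
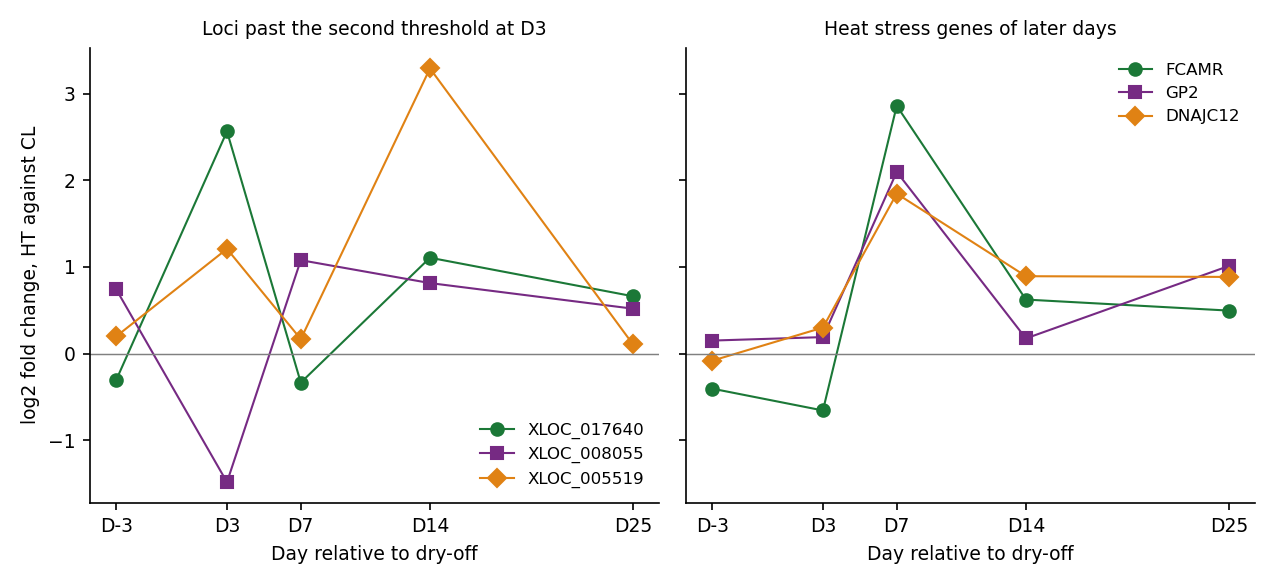
log2FC of HT relative to CL (y axis) at each day (x axis, to scale in days from dry-off) from separate edgeR fits of 6 against 6 cows, at left for the 3 loci past the less stringent threshold at D3 and at right for FCAMR, GP2 and DNAJC12; lines join the same locus and carry no error. The 3 loci at left are farthest from 0 at D3 except XLOC_005519, which is at 3.29 at D14, and the 3 genes at right are highest at D7. Loci at left were chosen by their D3 values, and genes at right by the study at later days in these cows. Their positions at those days follow in part from that choice.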

How the data were processed

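Poly(A) RNA of 60 biopsies was sequenced as single-end reads. Per the labels and methods, the authors trimmed reads with Trim Galore 0.4.1, aligned them with TopHat2 2.0.13, assembled loci with Cufflinks 2.2.1 and counted reads with HTSeq; the methods name the build bosTau7 and the processing notes UMD3.1, and no coordinates are used. The deposited values are raw counts per locus (25223 loci). A locus can join several genes (742 do). Symbols for 3033 loci came through the supplementary tables held here in part, which rank genes by change between days.

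Loci that reached 1 CPM in fewer than 6 of 60 samples were dropped, and the 14714 left were tested at D3 with edgeR 4.0.16 in R 4.3.3 (TMM factors, trended dispersions, quasi-likelihood F-test, Benjamini-Hochberg FDR of at most 0.05, or p of at most 0.005 with a log2FC of at least 0.5), 6 HT against 6 CL, without covariates, after checks on simulated data. The simulated counts varied less between samples than the D3 biopsies, and their differences were larger than those at most loci. The checks therefore do not measure power in these data. DESeq2 1.42.0 and limma 3.58.1 served as alternatives. MDS used the 500 most different loci and a prior count of 2, and permutation tests, two-sided and exact, used log2 CPM, or its change within each cow, over 924 choices of 6 from 12 cows, and over 70 choices of 4 from 8 without the 4 libraries that stand apart (smallest p 0.00216 and 0.0286). Changes between days used both days with the cow as a block. The labels give the cow, so samples pair across days. Deviations of D3 and D-3 samples of the same cow correlated at 0.475 on average (-0.0034 to 0.667) and of D3 and D7 samples at 0.332 (-0.211 to 0.677), against -0.0388 and -0.0293 for different cows. Of the 12 D3 samples, 8 correlated best with their own cow among the D-3 samples, and 6 among the D7 samples.

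Named genes were the loci past a threshold, in each list the 3 with the smallest p and the 1 with the highest mean CPM, genes the study names for heat stress, and cell type markers. The members and lists were chosen with earlier results of these data known. Treatment was randomised per the study; p-values measure the spread between cows.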

Additional observations from a re-analysis of the deposited data

Results flagged for a closer look

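In each treatment at D3, the 6 samples were searched at 112 loci and on MDS dimension 2, 226 groups in all. MDS dimension 1 was not searched. The search was for a single sample far from its nearest sample. Its gap, as a share of the group's range of log2 CPM (or of MDS position), had to be beyond Dixon's 95% critical value. Chance alone flags about 1 in 20 groups, and 10 groups were found, 6 of them through CL cow 8686.

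CL cow 8686 lay at 2.06 on MDS dimension 2, with the next CL sample at 0.0405. PLIN2, a lipid droplet coat protein, was at 1022 CPM in that cow against 246.0 in the next CL cow, and KL, klotho, at 12.99 against 0.486. Among CL cows the same cow was the lowest for KRT5, a basal keratin, at 246.0 CPM with the next CL cow at 603. It was also the lowest CL cow for WNT11, a secreted WNT ligand, at 3.07 against 5.59. For COMP, a cartilage matrix protein, it was at 0.205 against 3.77 in the next CL cow. Over both treatments, the other 11 cows went down to 258.8 CPM for KRT5 and 0.664 CPM for COMP.

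The other 4 samples came from different cows. HT cow 8314 had 512.9 CPM of SRSF5 where the next HT cow had 344.9, and HT cow 8513 had 67.3 CPM of PRG4 where the next had 18.997. CL cow 7965 was the highest of its group for SVEP1, with 44.2 CPM against 28.2, and CL cow 8603 the lowest for EMCN, an endothelial sialomucin, with 17.8 against 26.1. What set these samples apart was not tested.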

How the results depend on the processing

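No setting gave a locus at an FDR of at most 0.05 for HT against CL at D3 in all 12 cows. The fit of the 4 libraries that stand apart alone, with 2 cows per treatment and chosen after seeing the data, gave 58 such loci (14 higher and 44 lower in HT), 216 at the less stringent threshold and 807 at p under 0.05; the cause was not tested. The 3 loci at the less stringent threshold became 9 when every locus with a count was tested, 12 with DESeq2, 6 with edgeR's newer quasi-likelihood method, 10 with tagwise dispersions, 7 with limma voom over all 60 samples with the cow as a replicate block, 2 with library-size scaling, and 0 to 8 with each cow left out. In the fit over 60 samples the block may join the wrong samples of 2 HT cows, since the D3 samples of cows 8513 and 8660 correlated at 0.213 and 0.321 with the D25 sample of the same cow and at 0.520 and 0.468 with that of the other. The count at that threshold was 0 without HT cow 8314, 1 without CL cow 8603, 6 without CL cow 8647, 7 without HT cow 8713 and 8 without HT cow 8541. The 97 loci at p under 0.05 became 314 with every locus tested and 61 to 172 with each cow left out, 61 without CL cow 8060 and 172 without HT cow 8713. With every locus tested there were 20348 loci rather than 14714, so the 9 and 314 come from a larger total. For the change from D-3 to D3 that setting tested 20922 loci. Chosen after seeing the data, the position on MDS dimension 1 as a covariate gave 6 and 180 loci, the milk protein level at D-3 as a covariate 4 and 108, and leaving out the 4 libraries 26 and 316. For the change from D-3 to D3, the 3 and 212 loci became 1 and 40 with library-size scaling, 5 at the less stringent threshold with every locus tested, 20 with DESeq2, 5 with the newer method, 1 and 102 with no replicate block, and with each cow left out 3 to 30 and 134 to 567. For D7 against D3, the 2 and 112 loci became 1 and 73 with library-size scaling, 17 and 192 with DESeq2, 4 at the less stringent threshold with the newer method, 1 and 58 with no replicate block, and 1 to 22 and 62 to 429 with each cow left out. Without CL cow 7965 the change from D-3 gave 30 loci at the less stringent threshold, without HT cow 8713 14 and without CL cow 8686 12, and D7 against D3 gave 22 without HT cow 8541 and 8 without HT cow 8314. Of 390 gene list medians computed under other scalings or with libraries left out, 89 had the other sign, and 6 of 26 lists kept their sign throughout (cell cycle, matrix turnover, interferon response and the fibroblast, T and NK cell and skeletal muscle markers). Of the log2FC values of named loci under other settings 0 turned direction with a p under 0.05 as reported, 29 values of the 3 loci past the less stringent threshold no longer passed it, and 3 newly did (SEMA3B and NES without the 4 libraries and SVEP1 without CL cow 7965). With 6 cows per treatment and a median SE of 0.25, differences of the size seen at most loci were not detectable.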

Other observations

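CL cow 8686 was followed at D-3, D3 and D7, as values only and chosen after the values were seen. KL was at 19.1, 12.99 and 30.4 CPM in this cow on the 3 days, while the other 11 cows spanned 0.201 to 1.84, 0.0747 to 0.529 and 0 to 0.944 CPM. At D3 the cow was above all others for the milk fat genes FASN, at 3029 CPM where the others reached 1255, and BTN1A1, butyrophilin of the milk fat globule, at 265.0 CPM where the others reached 215.6. FABP4, the fatty acid carrier of adipocytes, was at 177 CPM with the others between 8.72 and 167. At D-3 and D7 FASN, BTN1A1 and FABP4 of this cow lay within the range of the other 11. PLIN2 was at 731 CPM at D-3, within the range of the others (267 to 2064), and at 1488 CPM at D7, above their 104.5 to 1188. At D3 KRT17 was the lowest of the 12, at 105 CPM against 110 to 587, as was CNN1, calponin, at 17.4 against 37.1 to 233, and both lay within the range of the others at D-3 and D7. KRT5 and COMP were the lowest of the 12 at D3 and again at D7. At D7 KRT5 was at 186 CPM against 201 to 486, and COMP at 0.215 against 0.268 to 7.60. At D-3 KRT5 and COMP lay within the range of the others. The summed CPM of the 5 myoepithelial markers was lower in HT cow 8668, at 998, than in cow 8686, at 1086.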
